A study of Mus musculus with 6 samples.

Results

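Selenoproteins of the redox and endoplasmic reticulum (ER) systems were followed in mouse lung fibroblasts (LFs) through 10 genes, Selenoh, Selenow, Selenof, Selenok, Selenom, Selenop, Gpx1, Gpx3, Gpx4 and Txnrd1, taken by symbol from the 55364 genes in the count tables. The list was chosen by symbol with the differences between the KO and wt libraries from an earlier analysis of these counts in view, so the values of these 10 genes are given as a description and without p-values. RNA was sequenced from the poly(A) end (Quant-Seq, LEXOGEN) in 3 libraries from wild type (wt) LFs and 3 from LFs that the sample labels call TKS5 knockout. The study names the same cells Tks5+/-, from mice heterozygous for an allele of Sh3pxd2a (the gene of the podosome scaffold TKS5) that lost exon 11 through a Cre driven by the CMV promoter, which is active in all tissues. The sources used here describe more than 1 such allele and do not say which of them these cells carried, and the libraries are called KO below, as labelled. All 6 cultures had received TGFβ at 10 ng/ml for 24 h, so no TGFβ effect could be measured. Per the study's methods, LFs came from collagenase-digested lungs of 8- to 10-week-old C57Bl6/J mice and were used after a few passages. The study describes its samples as biologically independent, while the labels do not say which animals or cultures the libraries of a group came from, and p-values measure the spread between these samples.

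Selenoproteins carry selenocysteine, the selenium analogue of cysteine, which the ribosome inserts at a UGA codon that would otherwise end translation. Reading that UGA as selenocysteine needs a stem-loop in the 3′ UTR (the SECIS element), a dedicated tRNA and its protein partners. In most of these enzymes the selenocysteine is the catalytic residue. Glutathione peroxidases spend glutathione to reduce hydrogen peroxide or lipid hydroperoxides, thioredoxin reductases recharge thioredoxin with NADPH, and a group of small selenoproteins resides in the ER, where proteins fold and are inspected. In fibroblasts exposed to TGFβ, peroxides are known both as signals and as a source of damage.

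In the GENCODE M21 annotation (GRCm38) an in-frame TGA was present in all 10 genes. The coding sequence around it is printed 5′ to 3′ on the coding strand because this codon is what makes the 10 genes a family, with the selenocysteine codon in capitals and the coordinates of that codon beside the name.
Selenoh, chr2:84670381-84670383, reverse strand: cattgtacgagcTGAcgcgtgtacggc
Selenow, chr7:15920464-15920466, reverse strand: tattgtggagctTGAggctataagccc
Selenof, chr3:144590645-144590647, forward strand: gaagtctgcggaTGAaaattggggagg
Selenok, chr14:29973440-29973442, forward strand: atggctggtggaTGAggaaggtaaatg
Selenom, chr11:3516273-3516275, forward strand: acctgtggaggaTGAcagttgaatcgc
Selenop (first of 10), chr15:3274848-3274850, forward strand: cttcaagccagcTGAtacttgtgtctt
Gpx1, chr9:108339451-108339453, forward strand: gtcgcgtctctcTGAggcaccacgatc
Gpx3, chr11:54907256-54907258, forward strand: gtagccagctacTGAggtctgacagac
Gpx4, chr10:80054737-80054739, forward strand: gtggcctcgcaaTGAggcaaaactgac
Txnrd1, chr10:82896037-82896039, forward strand: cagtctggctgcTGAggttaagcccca
The TGA lay early in the reading frame of Selenow (codon 13 of 88), Selenoh (codon 38 of 116) and Gpx1 (codon 47 of 201), and next to the end in Selenok (codon 92 of 94) and Txnrd1 (codon 498 of 499). Selenop, the selenium carrier of plasma, held 10 TGA codons, the first at codon 59 of 380 and the other 9 in its last exon.

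The libraries held 1344507 to 2369882 counts, and 10346 genes had enough counts to be fitted, all 10 selenoprotein genes among them. A gene is called changed where edgeR's quasi-likelihood test gave a Benjamini-Hochberg adjusted p below 0.05 over all fitted genes and a fold change of at least 1.2. By this rule 44.9% of all fitted genes were called, 22.8% as higher and 22.1% as lower in KO LFs, at a median log2 fold change of −0.046. Scaling by library totals instead moved that median to −0.47, and called 1362 genes as higher and 3944 as lower in place of 2356 and 2286. Reads of Sh3pxd2a numbered 205, 190 and 284 in the wt libraries and 238, 258 and 260 in the KO libraries (log2 fold change 0.29, SE 0.20, not called, and −0.13 by library totals), but they come from the transcript end and say nothing of exon 11. By Q-RT-PCR the study reported lower Tks5 mRNA in Tks5+/- LFs than in wt LFs, a drop that these reads do not show. The reason for this difference was not tested. Macrophage markers (16 genes such as Lyz2 and Csf1r, of which 12 were fitted, 0 called higher and 6 lower) summed to 339 to 2051 CPM (counts scaled by library size) in wt libraries, with wt 3 the highest, and to 135 to 149 CPM in KO libraries. Fibroblast markers summed to 9125 to 14122 CPM in all 6 libraries. Counts of the Y-linked Ddx3y were 146, 159 and 210 in wt and 25, 19 and 21 in KO libraries, those of Nnt, a mitochondrial NADPH source that differs between C57BL/6 substrains, were 47, 89 and 107 against 36, 18 and 19, and Xist was listed at 0 throughout. The part of these differences between the groups in the results below was not tested, and in bulk RNA fewer cells of a type and less RNA per cell cannot be told apart.

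Of the 10 selenoprotein genes, 5 were called higher in KO LFs, 0 lower, and 5 were not called, at a median log2 fold change of 0.57. The split was 4 higher and 3 lower with library totals, and 4 higher and 2 lower with a correction for transcript length. Because the genes were chosen with these values known, nothing is read from that share beside the 44.9% of all genes. Selenoh, Selenof, Selenok and Gpx1 were high in every KO library. Their groups did not overlap, as was the case for 26.1% of all fitted genes in that direction and for 53.8% in either direction. The fifth, Gpx4, shares its sequence with a pseudogene, and its call is qualified below. Together the 10 genes made up 0.0922% to 0.129% of all counts in wt and 0.223% to 0.303% in KO libraries, and wt 3 had the lowest share.

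**Figure D1:**
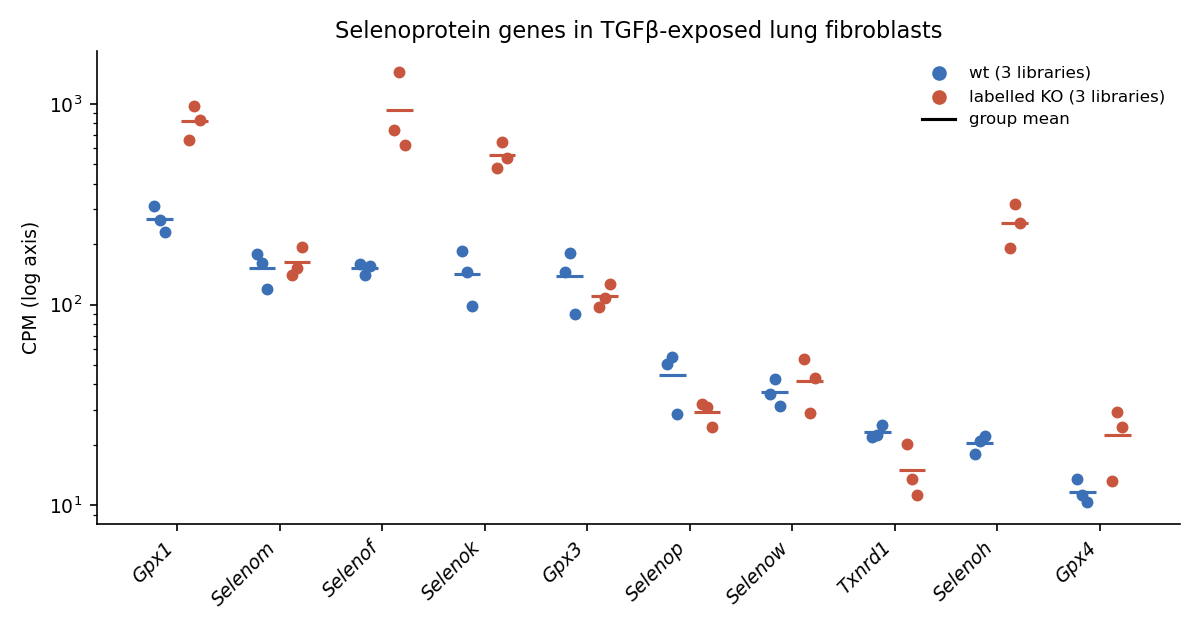
CPM (log axis) of the 10 selenoprotein genes in each of the 3 wt libraries (blue) and 3 KO libraries (red), with the group means as bars. Gpx1, Selenof, Selenok and Selenoh sit higher in every KO library than in any wt library, every KO library lies below every wt library for Txnrd1, and the groups overlap for the other 5 genes.

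Selenoh (ENSMUSG00000076437, chr2:84669215-84670770, reverse strand) encodes a small nuclear selenoprotein. It had 28, 39 and 60 counts in wt and 347, 544 and 498 in KO libraries. The lowest KO library lay far above the highest wt library, with 20.4 CPM ± 2.15 (SD, n = 3) in wt and 254.5 CPM ± 64.0 (SD, n = 3) in KO LFs, a 12.5-fold difference of the means. The fitted log2 fold change was 3.63 (SE 0.25), the largest of the 10. Another annotated gene on the same strand, Gm28635, singled out after its values were seen, overlaps Selenoh and had 10, 13 and 17 counts in wt and 1, 8 and 2 in KO libraries.

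Of the ER selenoproteins, Selenof and Selenok were higher in KO LFs and Selenom was not called. Selenof (ENSMUSG00000037072, chr3:144570304-144597680, forward strand), whose protein binds the glycoprotein-folding sensor of the ER, had 247, 262 and 422 counts in wt and 1352, 2453 and 1215 in KO libraries. The KO libraries were further apart than for any other of the 10 genes on the CPM scale, at 152 CPM ± 10.2 (SD, n = 3) in wt and 933 CPM ± 439 (SD, n = 3) in KO LFs, because KO 2 was higher than the other KO libraries (1435 against 742 and 622 CPM). The log2 fold change was 2.62 (SE 0.27), and 2.19 without KO 2. Selenok (ENSMUSG00000042682, chr14:29968308-29975662, forward strand), an ER membrane selenoprotein that takes part in protein palmitoylation, had 286, 271 and 265 counts in wt and 871, 1097 and 1052 in KO libraries. The ranges were well apart, at 142 CPM ± 43.0 and 553 CPM ± 82.9 (SD, n = 3 each), and the fitted log2 fold change was 1.96 (SE 0.23). Annotated copies of Selenok with at least 90% identity held 15 counts in all, against 3842 for Selenok itself. Selenom (ENSMUSG00000075702, chr11:3514684-3517351, forward strand), a thioredoxin-like protein of the ER lumen, had 278, 300 and 321 counts in wt and 257, 261 and 379 in KO libraries. The groups overlapped, at 153 CPM ± 30.7 and 163 CPM ± 27.8 (SD, n = 3 each), and the log2 fold change of 0.09 (95% interval −0.35 to 0.54) changed sign by scaling, to −0.33 with library totals. Its neighbour Smtn (chr11:3517523-3540612, reverse strand) had similar counts, 289, 307 and 334 in wt and 269, 276 and 393 in KO libraries. Whether both genes share reads was not tested, and the value for Selenom alone is uncertain.

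Among the glutathione peroxidases, cytosolic Gpx1 was higher in KO LFs while secreted Gpx3 was not called. Gpx1 (ENSMUSG00000063856, chr9:108338903-108340343, forward strand), which reduces hydrogen peroxide, had 481, 491 and 618 counts in wt and 1196, 1674 and 1620 in KO libraries. Every KO library was above every wt library, at 267 CPM ± 40.4 and 822 CPM ± 162 (SD, n = 3 each), and the fitted value was 1.62 (SE 0.22) on the log2 scale. Gpx3 (ENSMUSG00000018339, chr11:54902453-54910377, forward strand), the peroxidase of plasma and extracellular fluid, had 226, 337 and 243 counts in wt and 178, 185 and 247 in KO libraries. Its ranges overlapped, with 139 CPM ± 45.5 and 111 CPM ± 14.5 (SD, n = 3 each), and the fitted log2 fold change was −0.32 (95% interval −0.80 to 0.17). It passed the call as lower with library totals (−0.74) and with the length correction (−0.66). Within wt LFs Gpx3 was lowest in wt 3, the library with the most macrophage marker counts, and a link between these was not tested.

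Gpx4 (ENSMUSG00000075706, chr10:80047166-80056439, forward strand), which reduces lipid hydroperoxides in membranes and holds back ferroptosis, had few counts, at 21, 21 and 28 in wt and 24, 50 and 48 in KO libraries. KO 1 lay within the wt range on the CPM scale and the other KO libraries above it, with 11.7 CPM ± 1.62 (SD, n = 3) in wt and 22.3 CPM ± 8.27 (SD, n = 3) in KO LFs. Its log2 fold change was 0.94 (SE 0.33). The processed pseudogene Gpx4-ps2 (chr10:45875291-45876086, forward strand), singled out after its values were seen, is 99.738% identical to the Gpx4 transcript over 762 bases and held 1063 counts against 192 for Gpx4. Its counts were 131, 168 and 309 in wt and 124, 153 and 178 in KO libraries, so that most reads of this sequence were assigned to the pseudogene. With the reads of both added, the level was 108 CPM ± 14.8 in wt and 105 CPM ± 20.8 in KO LFs (SD, n = 3 each), and the log2 fold change was −0.041 (95% interval −0.48 to 0.40), not called. How reads were divided between both loci cannot be told from counts, and the value for Gpx4 alone is uncertain. Gpx4 alone kept its call in 13 of 22 alternatives, and was not called without wt 2 (0.91), wt 3 (0.85), KO 2 (0.74) or KO 3 (0.90), with library totals (0.50) or with a correction for transcript length (0.35).

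**Figure D2:**
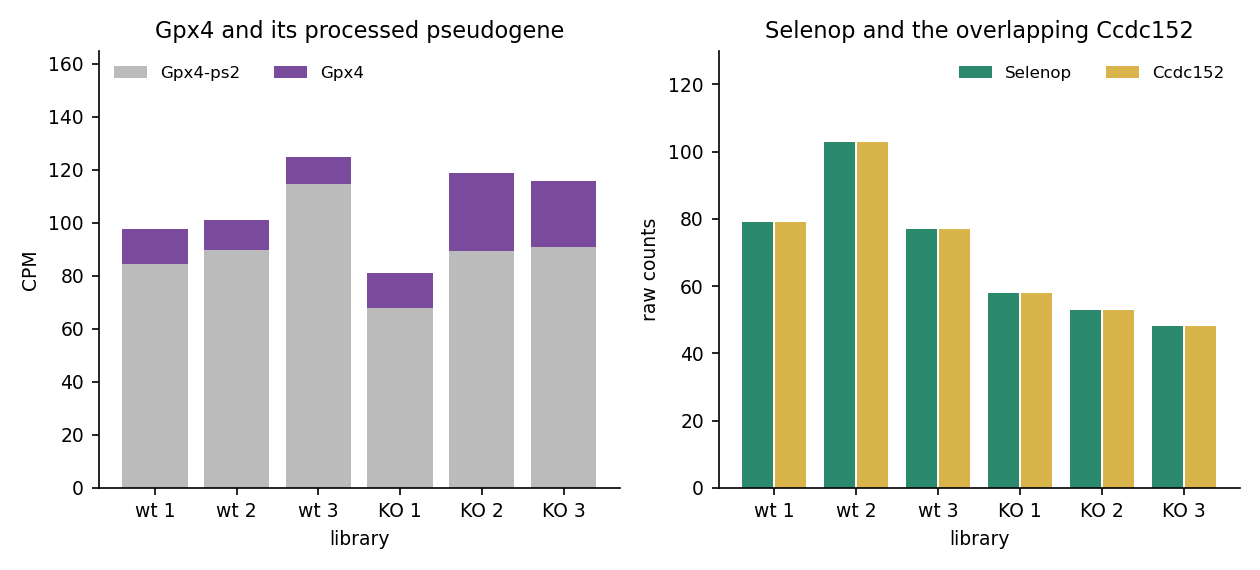
Left, CPM of Gpx4 (purple) stacked on those of its pseudogene Gpx4-ps2 (grey) in each library, where the pseudogene takes most of the sum and the sums average 108 CPM in wt and 105 CPM in KO libraries. Right, raw counts of Selenop (green) and of the overlapping Ccdc152 (yellow), which are identical in all 6 libraries.

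Selenop, Selenow and Txnrd1 were not called. Selenop (ENSMUSG00000064373, chr15:3268547-3280508, forward strand) had 79, 103 and 77 counts in wt and 58, 53 and 48 in KO libraries. The groups overlapped through wt 3 (28.6 CPM, against 50.8 and 55.1 CPM in the other wt libraries), with 44.8 CPM ± 14.3 in wt and 29.1 CPM ± 3.98 in KO LFs (SD, n = 3 each). The log2 fold change was −0.61 (SE 0.27), and without wt 3 it was −0.87 and passed the call as lower. It passed as lower in 8 of 22 alternatives in all, among them library totals (−1.03) and the length correction (−0.79). Ccdc152, on the opposite strand, overlaps the last exon of Selenop and was listed with the same count in each library, 418 in all, so reads of both genes cannot be told apart in these tables. Selenow (ENSMUSG00000041571, chr7:15917208-15922402, reverse strand), a small cytosolic protein with a thioredoxin-like fold, had 56, 80 and 84 counts in wt and 98, 49 and 84 in KO libraries. The groups overlapped, at 36.7 CPM ± 5.86 and 41.8 CPM ± 12.6 (SD, n = 3 each), and the log2 fold change of 0.20 (95% interval −0.33 to 0.73) fell on the other side of 0 with library totals (−0.21) and with the length correction (−0.45). Txnrd1 (ENSMUSG00000020250, chr10:82833951-82897712, forward strand), the cytosolic thioredoxin reductase, had 34, 42 and 68 counts in wt and 37, 23 and 22 in KO libraries. On the CPM scale every KO library was below every wt library, as was the case for 27.6% of all fitted genes in that direction, with 23.2 CPM ± 1.78 in wt and 15.0 CPM ± 4.72 in KO LFs (SD, n = 3 each). The log2 fold change was −0.63 (95% interval −1.25 to −0.019), and without KO 1 it passed the call as lower at −0.86, as it did with library totals (−1.04).

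The order of the genes by CPM differed between the groups. Because each transcript is read once from its poly(A) end, CPM were not divided by length, and the order is one of reads. In wt LFs, Gpx1 was highest, followed by Selenom, Selenof, Selenok and Gpx3, whose neighbouring ranges overlapped. Selenop and Selenow overlapped each other below these, Txnrd1 and Selenoh overlapped at 18.0 to 25.2 CPM, and Gpx4 was lowest by the reads of its own locus. With the reads of Gpx4-ps2 added, the Gpx4 sequence stood at 108 CPM in wt and 105 CPM in KO LFs, so its place in either order is uncertain. The places of Selenom and Selenop are uncertain too, given the counts of Smtn and Ccdc152. In KO LFs Selenof and Gpx1 overlapped at the top, followed by Selenok and then by Selenoh and Selenom, which overlapped. Gpx3 came next, and the ranges of Selenow, Selenop, Gpx4 and Txnrd1 overlapped from each to the next. Selenoh thus had rank 9 of the 10 genes in wt and rank 4 in KO LFs.

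The values of the 10 genes were also set beside transcript length, GC content and gene structure, as descriptions. Across 10339 fitted genes the log2 fold change fell with transcript length (Spearman's rho −0.40) and less so with GC content (−0.12), both across genes, which are not independent replicates. With both corrected, the log2 fold changes were 2.97 for Selenoh, 2.34 for Selenof, 1.43 for Selenok and 1.39 for Gpx1, all still called higher, while Gpx4 (0.82) was not called and Selenop (−1.01) was called lower. Reads had been counted on 3′ UTRs with a minimum length of 300 bases. In the transcript examined for each gene, 3 of the 10 have a shorter UTR, Gpx1 (207 bases), Selenom (191 bases) and Gpx4 (221 bases). The 3′ UTRs of their other annotated transcripts are not given here. In all but Txnrd1 the first selenocysteine codon printed above lay upstream of the last exon. The distance from the TGA to the last exon junction was 5 bases in Selenok, 78 in Selenof, 105 in Gpx1, 135 in Selenom, 136 in Selenoh, 240 in Gpx3, 243 in Selenow, 342 in Gpx4 and 357 in Selenop. Of the called genes, Selenok, Selenof, Gpx1 and Selenoh lay at 5 to 136 bases and Gpx4 at 342, and the uncalled ones at 135 to 357. A link between this distance and the calls was not tested. Among the selenoprotein genes outside the 10, Msrb1, with 34 bases, was not called, and Selenos, whose TGA is in the last exon, was called higher.

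RefSeq promoters (300 bases around each start site, GRCm38.p6) were found for all 10 genes, 17 promoters in all. They were searched on both strands for TGACNNNGC, the core of the antioxidant response element bound by NRF2, which 12.4% of 32851 promoters hold, and for the ER stress response element, CCAAT and CCACG with any 9 bases between them, which 0.119% hold. The first was found in promoters of Txnrd1 and Selenok, shown with its fixed bases in capitals on the strand of the gene. In Txnrd1 the match reads on the opposite strand.
Txnrd1, chr10:82859109-82859127: tttttGCtttGTCAttctg
Selenok, chr14:29968331-29968349: ttgtgTGACtggGCggaac
The second was found in none of the 17. A match describes letters and not a bound site. Of the genes with a match, Selenok was called higher and Txnrd1 was not called.

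**Figure D3:**
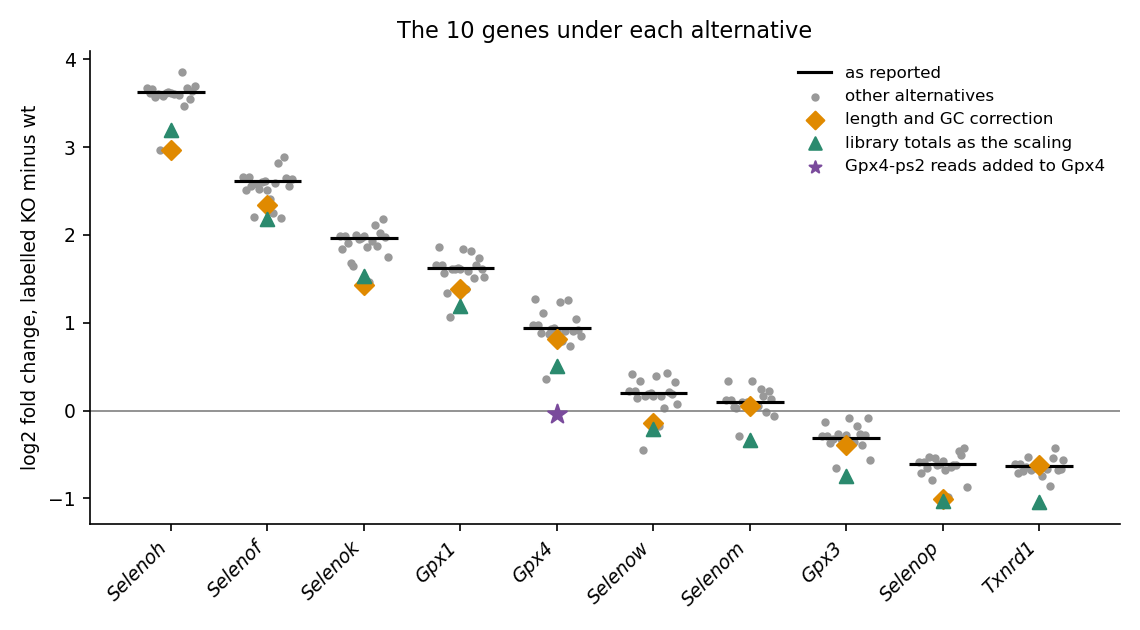
Log2 fold change of each of the 10 genes as reported (black bar) and under each alternative (points), with the length and GC correction, scaling by library totals and the addition of Gpx4-ps2 reads marked. Selenoh (2.97 to 3.85), Selenof (2.18 to 2.88), Selenok (1.43 to 2.19) and Gpx1 (1.06 to 1.86) stay above 0 throughout, while Gpx4, Selenow and Selenom cross it.

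The 14 other mouse genes with a selenocysteine codon served as a comparison. Of these 9 were fitted, 1 was called higher, 1 lower and 7 were not called (22.2% called, median log2 fold change −0.0044, beside −0.046 for all genes). Selenos, an ER membrane selenoprotein that helps to extract misfolded proteins, rose from 221 CPM ± 75.8 to 538 CPM ± 106 (SD, n = 3 each), with 459, 418 and 388 counts in wt and 811, 1117 and 1009 in KO libraries. Its log2 fold change was 1.29 (SE 0.24, adjusted p = 0.000178 by edgeR's quasi-likelihood test), and the groups did not overlap. With length and GC corrected it was 0.60, still called. Dio2, the deiodinase that activates thyroid hormone, fell by 0.96 on the log2 scale (SE 0.32, adjusted p = 0.0176), with 40, 38 and 51 counts in wt and 14, 25 and 21 in KO libraries, and lost its call without wt 1 (−0.83), KO 1 (−0.71) or KO 3 (−0.91), with the length correction (−0.55, adjusted p = 0.187) and with length and GC corrected (−0.78, adjusted p = 0.0574). The count of called genes in this list was 1 without wt 1 and 4 with library totals. Msrb1, a methionine sulfoxide reductase, was the closest to 0 at 261 CPM ± 36.2 in wt and 260 CPM ± 24.95 in KO LFs (SD, n = 3 each, 95% interval of the log2 fold change −0.42 to 0.41). Of the other 6, Txnrd2 (0.31), the ER protein Selenot (0.31) and Selenoi (0.32) were above 0 as reported and below 0 with library totals, and Selenon (−0.28), Selenoo (−0.49) and Sephs2 (−0.34) were below 0 as reported, Selenon being above it with length and GC corrected. Selenoo had 30, 35 and 40 counts in wt and 35, 17 and 16 in KO libraries. Tubgcp6, singled out after its values were seen, overlaps or adjoins its last exon on the opposite strand. Its counts were 39, 40 and 42 in wt and 38, 18 and 16 in KO libraries, and whether both genes share reads was not tested. Dio3 was too low to be fitted, with 9, 13 and 4 counts in wt and 0, 1 and 0 in KO libraries, a 23.3-fold ratio with a counting interval of 3.83 to 955. Gpx2, Txnrd3, Dio1 and Selenov had at most 6 counts in any library.

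**Figure D4:**
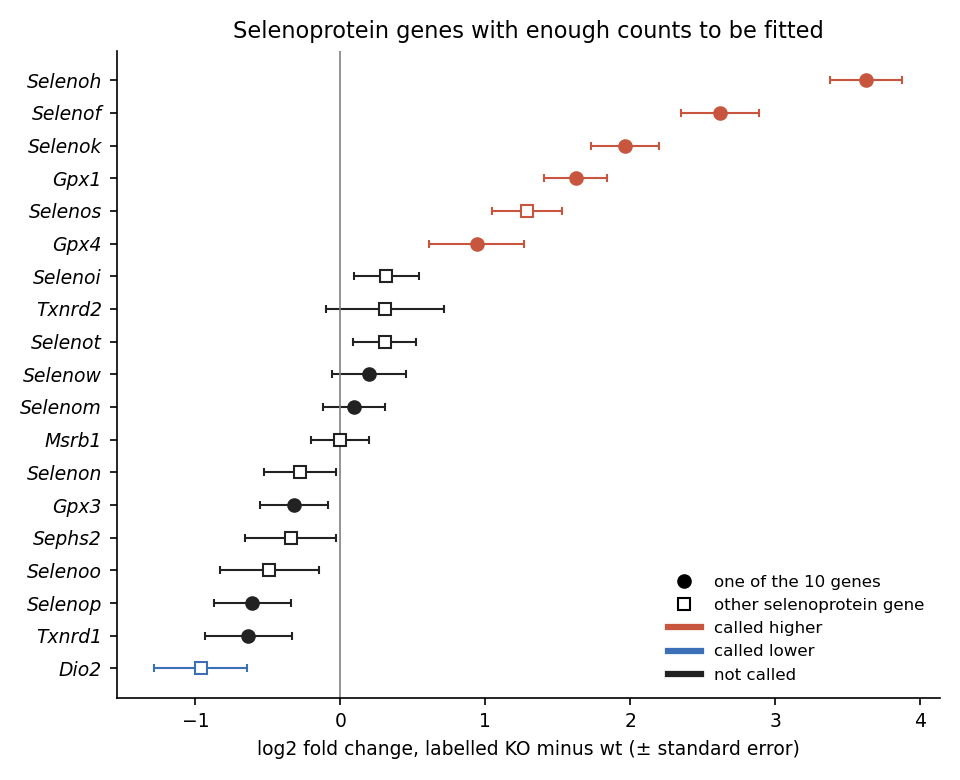
Log2 fold change (KO minus wt, bars are standard errors) of the 19 fitted selenoprotein genes, the 10 genes as filled circles and 9 others as open squares. Selenoh (3.63), Selenof (2.62), Selenok (1.96), Gpx1 (1.62), Selenos (1.29) and Gpx4 (0.94) were called higher, Dio2 (−0.96) lower, and the other 12 were not called.

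Genes that make selenocysteine, deliver selenium or bind the SECIS element moved in both directions. Of 14 such genes 11 were fitted, 4 were called higher and 3 lower (63.6% called, beside 44.9% of all genes, median log2 fold change −0.44). The split was 4 higher and 5 lower with library totals, and 4 and 2 with the length correction. Over the alternatives 5 to 9 genes were called. This list and the glutathione and thioredoxin lists below were chosen with earlier results of these data known. Nothing is therefore read from their shares, and the adjusted p-values describe single genes only. Pstk and Trnau1ap, which act on the selenocysteine tRNA, were higher by 1.94 (adjusted p = 3.42e-05) and 1.66 (adjusted p = 1.31e-05) on the log2 scale in edgeR's fit. Rpl30, a ribosomal protein that also binds SECIS elements, rose from 150.5 CPM ± 26.6 to 559 CPM ± 43.7 (SD, n = 3 each, log2 fold change 1.89, adjusted p = 3.41e-07), whereas nucleolin (Ncl), another SECIS-binding protein, fell from 1218 CPM ± 112 to 448 CPM ± 95.7 (SD, n = 3 each, −1.44, adjusted p = 1.17e-05, and −2.29 in the authors' normalized counts). Cth, which makes cysteine by transsulfuration, rose by 3.15 on the log2 scale (SE 0.32, adjusted p = 2.70e-07), with 11, 10 and 45 counts in wt and 127, 162 and 217 in KO libraries, and by 3.88 without wt 3. Of the Selenop receptors, Lrp8 was lower (−0.84, adjusted p = 0.0243, not called without wt 2, KO 1 or KO 3, with DESeq2, with the authors' normalized counts or with the length correction, where it was −0.36) and Lrp2 had 20, 16 and 31 counts in wt and 0, 1 and 0 in KO libraries, a 60.1-fold ratio with a counting interval of 10.4 to 2407. Intervals of such ratios cover counting error only. Sephs1, Sepsecs, Scly and Secisbp2l were not called.

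Glutathione genes were also divided, with 6 of 23 fitted genes called higher and 7 lower (56.5% called, beside 44.9% of all genes, median log2 fold change 0.34). With library totals 1 was called higher and 9 lower, with the length correction 4 and 10, and 3 were called higher without wt 1, wt 2 or KO 3 and 2 without KO 2. Among the genes that supply the tripeptide, Slc7a11, the cystine importer, fell by 3.64 on the log2 scale (SE 0.47, adjusted p = 2.71e-06), with 26, 35 and 125 counts in wt and 3, 5 and 4 in KO libraries, and without wt 3 the log2 fold change was −2.98. The ligase genes Gclc (−1.61, adjusted p = 0.00431) and Gss (−1.03, adjusted p = 0.00268) were lower too, while Gclm was not called. Gstm1, a glutathione transferase, fell by 3.04 (SE 0.27, adjusted p = 2.34e-08) from 76.6 CPM ± 16.1 to 9.31 CPM ± 1.47 (SD, n = 3 each), and Gstm2 by 0.99 (adjusted p = 0.000344). Glrx rose by 1.28 (SE 0.28, adjusted p = 0.000766) and Glrx3 by 0.59 (adjusted p = 0.0291, not called without wt 1, wt 3, KO 2 or KO 3, with library totals at 0.16, with the authors' normalized counts at 0.18 or with the GC correction at 0.47), and the log2 fold change of Glrx5 was 0.45 (adjusted p = 0.0661). The peroxidases without selenocysteine were Gpx8 (0.56, adjusted p = 0.0430), which was not called without wt 1, wt 2, KO 2 or KO 3 or with library totals (0.13) and stood at −0.23 with length and GC corrected, and Gpx7 (−0.19, adjusted p = 0.563). The count of 13 called glutathione genes was 8 without KO 2.

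Of 15 fitted thioredoxin and peroxiredoxin genes, 9 were called higher in KO LFs, 2 lower and 4 not called (73.3% called, beside 44.9% of all genes called and 22.8% called higher, median log2 fold change 1.15, beside −0.046 for all genes). The split was 8 higher and 3 lower with library totals, and 7 and 2 with length and GC corrected. Over the alternatives 8 to 11 genes were called, and nothing is read from this share either. Txn1, the substrate of Txnrd1, rose from 268 CPM ± 26.2 to 819 CPM ± 206 (SD, n = 3 each, log2 fold change 1.61, adjusted p = 4.53e-06, and 0.86 with length and GC corrected). Txnip, which binds and inhibits thioredoxin, rose by a like amount (1.61, adjusted p = 1.51e-05). Most peroxiredoxins take their electrons from thioredoxin. Those called higher included Prdx5 (1.44, adjusted p = 9.44e-06), Prdx3 of mitochondria (1.57, adjusted p = 8.05e-06, and 0.98 with length and GC corrected) and Prdx1 (1.21, adjusted p = 0.000266). Prdx6 was not called (−0.046, adjusted p = 0.870). The 2 lower genes were Sesn2 (−1.47, adjusted p = 0.00182) and Srxn1 (−0.72, adjusted p = 0.0232), which restores oxidised peroxiredoxins. Srxn1 was not called without wt 3 (−0.33), KO 1 (−0.62) or KO 3 (−0.63), and its CPM, like those of Slc7a11 and Cth, were highest in wt 3 among the wt libraries.

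**Figure D5:**
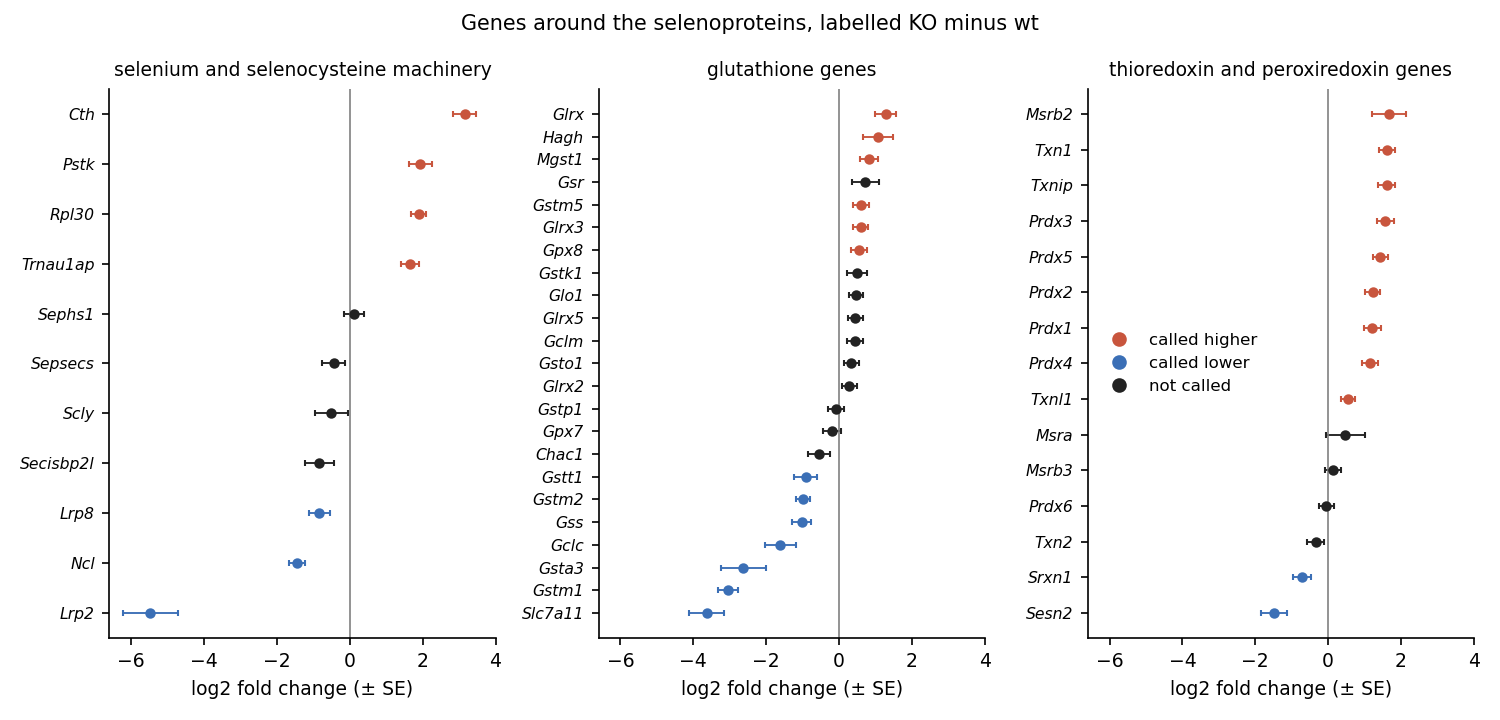
Log2 fold change (KO minus wt, bars are standard errors) of the fitted genes of the selenocysteine machinery (11 genes), glutathione (23) and thioredoxin and peroxiredoxin (15) lists, with calls coloured. The first panel runs from Lrp2, whose fitted value rests on 1 count in KO libraries, to Cth (3.15), the second from Slc7a11 (−3.64) to Glrx (1.28), and in the third 9 genes are called higher and 2 lower.

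For each gene the most similar profile was sought among 5181 or 5182 fitted genes with at least 50 counts per library on average, by Pearson's r of log2(CPM + 1) over the 6 libraries, which share their depth and scaling. The closest genes were Sike1 for Selenoh, Tomm7 for Selenof, Mettl9 for Selenok and Rps27a for Gpx1, with r of at least 0.998. Those for the other genes were Smtn for Selenom, Arxes2 for Gpx3, Man2a2 for Txnrd1, Anxa7 for Gpx4, and Tceal9 for Selenow with the lowest r of 0.977. Whether these genes differed between the groups follows from how they were matched, and is not given as a result. Selenop was matched by Ccdc152 at r of 1, which holds the same reads. Smtn, the match of Selenom, is its neighbour on the opposite strand with similar counts, and whether both share reads was not tested.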

How the data were processed

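Raw counts per gene were deposited for 3 wt and 3 KO libraries. The authors trimmed reads with Trim Galore, aligned them to GRCm38 with HISAT2 and then Bowtie2, counted reads on 3′ UTRs of at least 300 bases with metaseqR2 and summed these per gene. Strand handling is not given in the sources used here. Selenop and Ccdc152, on opposite strands, were listed with identical counts, so the reads of this pair were not separated by strand. Other genes with a neighbour on the opposite strand, such as Selenom and Selenoo, may share reads too, which was not tested. The deposited normalized counts (whole numbers, used as a score) hold the same sorted values in 6 of 6 libraries, and served 1 alternative. Of 55364 genes, 55104 were matched to symbols, and 21720 had a count.

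Counts were fitted in edgeR 4.0.16 (R 4.3.3, filterByExpr, TMM, robust quasi-likelihood), with Benjamini-Hochberg adjustment over 10346 genes. CPM use TMM-scaled totals. Alternatives used limma 3.58.1, limma-voom, DESeq2 1.42.0, other scalings and filters, loess corrections for length and GC, a replicate block and leaving out each library. The scripts were tested on simulated data. The 10 genes and all lists were chosen with earlier results of these data known. Named were the 10 genes, all fitted selenoprotein genes, of each other list the 4 called genes with the smallest adjusted p and the 2 with the largest mean count, the closest profile of each of the 10, and Sh3pxd2a, Nnt, Xist and Ddx3y. Further genes of the lists (Pstk, Trnau1ap, Lrp8, Gclc, Gss, Gpx7, Gpx8, Prdx6, Sesn2 and Srxn1) and Dio3 were named after their values were seen. Cell markers also covered endothelial (4 fitted, 3 lower), epithelial (3 fitted, 1 higher and 2 lower), mesothelial (1 fitted, 1 lower), smooth muscle (5 fitted, 1 higher and 4 lower) and fibroblast genes (11 fitted, 4 higher and 2 lower).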

Additional observations from a re-analysis of the deposited data

How the results depend on the processing

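Over 22 alternatives the number of called genes ranged from 3705 to 5306 and that of the 10 selenoprotein genes from 4 to 7. Selenoh, Selenof, Selenok and Gpx1 were called higher in every one, which is a description, as they were chosen with these values known. Removing the fold change threshold reused the same fit, and adding Gpx4-ps2 reads altered only the counts of Gpx4 and Gpx4-ps2. Neither could move the calls of Selenoh, Selenof, Selenok and Gpx1. Fits that left out 1 library gave 1 (without wt 1) to 3 called genes among the other selenoproteins and 8 to 13 among the glutathione genes. The former count was 4 with library totals and the latter 8 with at least 10 counts in every library. The addition of Gpx4-ps2 reads and the block with length and GC corrections were chosen after seeing the data. Of 1032 values of 47 named genes under the alternatives, 930 kept their direction and side of the threshold, 39 gained a call, 26 lost one and 37 changed sign. The cause of these changes was not tested. The 930 include values that were the same by construction. These are the values without the fold change threshold and, for genes other than Gpx4, those with Gpx4-ps2 reads added.

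The sign changed with library totals for Selenow (−0.21), Selenom (−0.33), Txnrd2 (−0.11), Selenoi (−0.096), Selenot (−0.11), Tceal9 (−0.29), Smtn (−0.32), Anxa7 (−0.081) and Sh3pxd2a (−0.13), with the length correction for Selenow (−0.45), Selenom (−0.29), Tceal9 (−0.45) and Man2a2 (0.087), and with length and GC for Selenow (−0.14), Tceal9 (−0.63), Selenon (0.10) and Man2a2 (0.32). With the replicate block and both corrections it changed for Selenow (−0.17), Selenon (0.095), Tceal9 (−0.67) and Man2a2 (0.32). Gpx4 was at −0.041 with the pseudogene's reads added, and Tceal9 at −0.41 in the authors' normalized counts. Msrb1 moved to 0.024 with RLE scaling or DESeq2, 0.00030 with limma-voom, 0.00041 with the block, 0.14 with the GC correction and 0.15 with the block and GC. Without 1 library, the log2 fold change ran from −0.065 to 0.24 for Selenom, −0.082 to 0.11 for Msrb1, −0.068 to 0.32 for Tceal9 and −0.045 to 0.26 for Smtn.

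The labels do not say whether libraries with the same replicate number were paired. Same-number correlations of deviations were −0.001, −0.064 and 0.082, and those of unlike numbers ran from −0.10 to 0.097. With so few libraries these values cannot decide it. The replicate block, with 4668 genes and 5 of the 10 called, therefore stands for a shared number only. Gpx4, Txnrd1 and Selenoh had the fewest counts among the 10 genes in wt libraries, at 21 to 68.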
